A study of Homo sapiens with 8 samples.

Results

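Vascular endothelial growth factor (VEGF) ligands and their receptors were examined as a group of 9 genes in the human cell line Ea.hy926, chosen by name and matched by symbol to 9 of the 38010 gene IDs in the deposited count table. The ligand genes are VEGFA, VEGFB, VEGFC and PGF, the receptor kinase genes are KDR, FLT1 and FLT4, and the co-receptor genes are NRP1 and NRP2. Ea.hy926 is a hybrid of an umbilical vein endothelial cell and the lung carcinoma line A549. An OXPHOS-deficient line (Rho0) was compared with the parental line (Eahy), with 4 biological replicates of each collected at confluence for poly-A RNA sequencing. The term Rho0 is used for cells that have lost their mitochondrial DNA and with it a working respiratory chain. The labels name no other treatment or allele, and each line is a single line, so a difference between the lines that has nothing to do with respiration cannot be told apart from the loss of respiration.

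VEGF ligands are secreted dimers that bind receptor tyrosine kinases on endothelial cells. KDR (VEGFR2) is the main signalling receptor for VEGFA. FLT1 (VEGFR1) binds VEGFA, VEGFB and PGF tightly, signals weakly, and also exists as a soluble form that holds ligand away from KDR. FLT4 (VEGFR3) binds VEGFC and VEGFD and is best known in lymphatic endothelium. Neuropilins carry no kinase domain. They hold VEGF ligands next to the kinases and also bind class 3 semaphorins together with plexins. VEGFA is a classical target of hypoxia-inducible factors.

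The promoters of KDR and FLT1 are shown because these paralogous receptor genes differed between the lines in opposite directions. Each is the stretch of 250 bases before the RefSeq start (GRCh38.p14, minus strand), chr4:55125596-55125845 for KDR and chr13:28495129-28495378 for FLT1. Capitals mark the ETS core GGAA, the cAMP response element TGACGTCA and the TATA box TATAAA, each searched on both strands.
KDR: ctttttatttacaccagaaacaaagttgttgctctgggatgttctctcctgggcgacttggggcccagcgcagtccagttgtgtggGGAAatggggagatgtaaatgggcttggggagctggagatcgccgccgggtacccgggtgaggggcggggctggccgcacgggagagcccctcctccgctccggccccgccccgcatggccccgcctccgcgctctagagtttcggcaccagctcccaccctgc
FLT1: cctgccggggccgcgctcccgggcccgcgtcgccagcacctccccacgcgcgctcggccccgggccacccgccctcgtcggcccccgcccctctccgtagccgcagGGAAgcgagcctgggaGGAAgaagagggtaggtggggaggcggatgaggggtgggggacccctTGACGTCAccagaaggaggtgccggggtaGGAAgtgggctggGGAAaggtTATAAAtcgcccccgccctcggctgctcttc
The KDR stretch held 1 ETS core and neither of the other marked motifs. The FLT1 stretch held 4 ETS cores, 1 cAMP response element starting at base -81 and 1 TATA box starting at base -31, counted from the RefSeq start. Among 35116 RefSeq stretches of the same length, 92.7% held an ETS core, 1.65% a cAMP response element and 10.7% a TATA box. The median number of ETS cores was 3, with 7.26% of stretches holding fewer than KDR and 65.7% fewer than FLT1. The unmarked GC box GGGCGG, found in 42.6% of all stretches, occurred 2 times for KDR and 3 times for FLT1. A core of the hypoxia response element (ACGTG or GCGTG) was in the FLT1 stretch, not in the KDR stretch, and in 43.2% of all stretches. A match of letters is a description, not a bound site. RefSeq promoters were matched for 6 of the 9 genes, and those of FLT4, NRP1 and VEGFA were not used here.

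Libraries held 11721708 to 37203507 estimated counts in Rho0 and 23366190 to 28599386 in the parental line. Mitochondrially encoded mRNAs made up 0.00296% to 0.149% of the Rho0 libraries, highest in replicate 2, and 16.05% to 21.4% of the parental libraries (two-sided p = 0.0286 by exact permutation of the 8 libraries, where 70 arrangements can give nothing smaller). Levels are given as CPM, the counts-per-million unit taken over the TMM-scaled library size, TMM being edgeR's scaling by a trimmed mean of gene ratios. Differences were tested by edgeR's quasi-likelihood test over 15184 genes, adjusted by Benjamini and Hochberg, and called at an adjusted p of 0.05. Of all genes tested, 54.4% were called, 29.0% higher and 25.4% lower in Rho0. Against that background 7 of the 9 members were called, 4 higher (KDR, NRP1, VEGFA and VEGFC) and 3 lower (FLT1, NRP2 and PGF). The median log2 fold change of the members was 0.25, and that of all genes tested was 0.05. Scaling by library size alone moved the median of all genes to 0.44 and called 56.5% of genes higher and 10.1% lower. With that scaling 5 members were called higher and 2 lower.

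All 9 members passed the filter on low counts. Their CPM did not overlap between the lines for 7 of 9, 4 higher and 3 lower. Of all genes tested, 50.9% did not overlap, 26.6% higher and 24.3% lower in Rho0. The replicates are labelled as biological, without saying how the cultures were separated. The p-values therefore set the difference between the lines against the spread among these samples only.

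**Figure D1:**
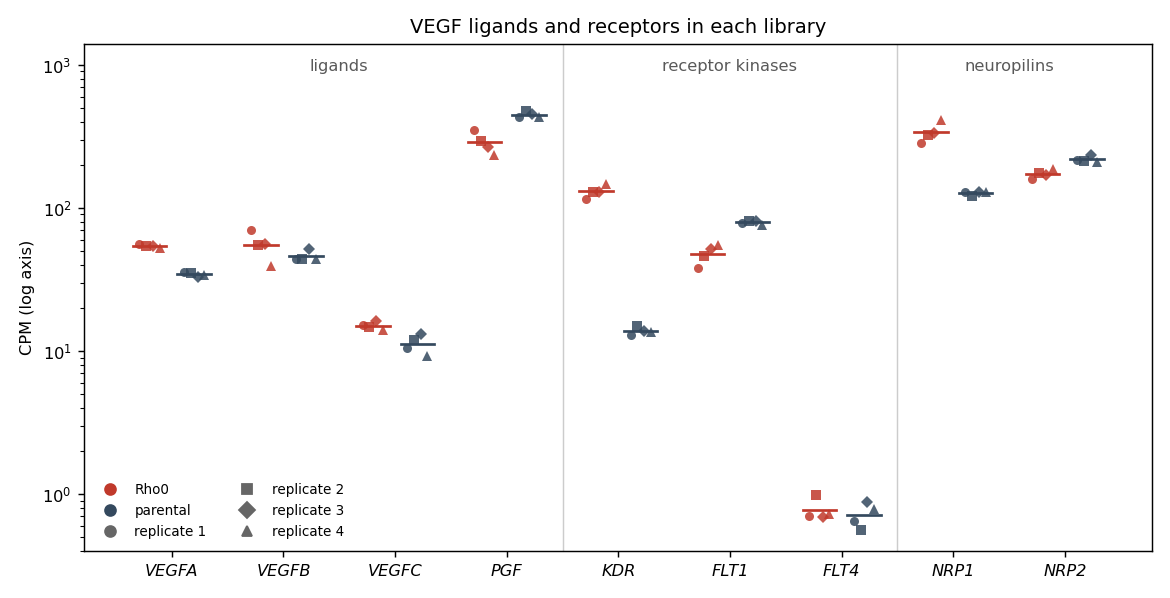
CPM of each member in each library on a log axis, with Rho0 (red) left of the parental line (dark blue), symbols for replicates 1 to 4 and bars for the means of 4 libraries. KDR lies at 115 to 148 CPM in Rho0 and 13.0 to 14.9 CPM in the parental line, the widest gap among the 9 genes.

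KDR, the main signalling receptor for VEGFA (ENSG00000128052, chromosome 4, 55078259 to 55125595, GENCODE 29 on GRCh38), was far higher in Rho0. It had 115, 130.05, 129 and 148 CPM in Rho0 replicates 1 to 4, against 13.0, 14.9, 13.9 and 13.5 CPM in the parental libraries. Every Rho0 library was above every parental library by a wide margin. KDR rose 9.43-fold (log2 fold change 3.24 with an SE of 0.09, edgeR adjusted p = 2.6e-09). Of the 15184 genes tested, 187 had a higher log2 fold change than KDR.

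FLT1, the high-affinity receptor of weak kinase activity (ENSG00000102755, chromosome 13, 28300344 to 28495145), was lower in Rho0. Its levels were 37.8, 46.0, 51.7 and 55.1 CPM in Rho0 replicates 1 to 4, against 78.5, 81.5, 80.5 and 75.9 CPM in the parental libraries. The lines did not overlap, and the Rho0 libraries were spread more widely, with a coefficient of variation of 15.9% in Rho0 and 3.15% in the parental line. FLT1 fell by 0.73 on the log2 scale (SE 0.11, edgeR adjusted p = 2.1e-04). The counts add up all transcripts of a gene, so the membrane-bound and soluble forms of FLT1 cannot be separated.

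The ratio of FLT1 to KDR counts within a library does not depend on how libraries are scaled. It was 0.329 to 0.400 in the 4 Rho0 libraries and 5.47 to 6.02 in the 4 parental libraries. The receptor with more counts was therefore KDR in every Rho0 library and FLT1 in every parental library. The log2 ratio was lower by 3.98 in Rho0, with group means of -1.46 ± 0.12 in Rho0 and 2.52 ± 0.06 in the parental line (SD, n = 4 each; two-sided exact permutation p = 0.0286, adjusted p = 0.0343 over 6 ratios). Per kilobase of exon, KDR made up 83.7 ± 1.07% of the signal of the 3 receptor kinase genes in Rho0 and 24.8 ± 0.802% in the parental line (SD, n = 4 each). Over the longest transcript instead of the union of exons, these shares of KDR were 76.0% and 16.8%.

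FLT4, the receptor for VEGFC (ENSG00000037280, chromosome 5, 180601506 to 180649624), was the lowest of the 9 in both lines. It had 25, 13, 16 and 32 counts in Rho0 replicates 1 to 4, against 14, 14, 17 and 17 counts in the parental libraries. These were 0.701, 0.980, 0.686 and 0.721 CPM in Rho0 and 0.642, 0.557, 0.876 and 0.791 CPM in the parental line. The lines overlapped, and a difference was not detectable at this depth (log2 fold change 0.08, 95% interval -0.44 to 0.60, edgeR adjusted p = 0.840). Against KDR, the log2 ratio of FLT4 was lower by 3.12 in Rho0, at -7.42 ± 0.28 in Rho0 and -4.30 ± 0.33 in the parental line (SD, n = 4 each; exact permutation p = 0.0286, adjusted p = 0.0343).

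NRP1, the co-receptor that strengthens VEGFA binding to KDR (ENSG00000099250, chromosome 10, 33177492 to 33336262), was also higher in Rho0. Its levels were 284, 323, 334 and 410.0 CPM in Rho0 replicates 1 to 4, against 129.8, 120.4, 129 and 129 CPM in the parental libraries. The lowest Rho0 library was above the highest parental library. NRP1 rose 2.66-fold (log2 fold change 1.41, SE 0.10, edgeR adjusted p = 1.3e-06).

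NRP2, the neuropilin linked mainly to VEGFC and lymphatic growth (ENSG00000118257, chromosome 2, 205681990 to 205798133), had a small difference in the other direction. It had 159, 175, 171 and 187 CPM in Rho0 replicates 1 to 4, against 216, 214, 235 and 209.5 CPM in the parental libraries. With TMM scaling the lines did not overlap and NRP2 fell by 0.34 on the log2 scale (SE 0.07, edgeR adjusted p = 0.00235), but with scaling by library size alone its log2 fold change was 0.06 and it was not called. The log2 ratio of NRP1 to NRP2, free of scaling, was higher by 1.74 in Rho0, at 0.96 ± 0.13 in Rho0 and -0.78 ± 0.08 in the parental line (SD, n = 4 each; exact permutation p = 0.0286, adjusted p = 0.0343). NRP1 counts were 1.79 to 2.19 times those of NRP2 in Rho0 and 0.549 to 0.617 times in the parental line.

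**Figure D2:**
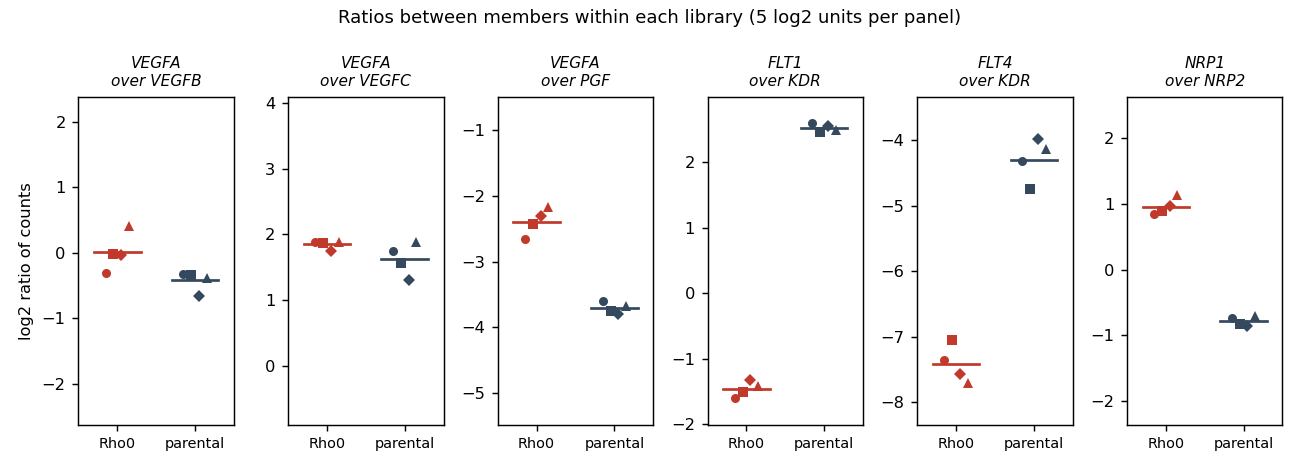
The log2 ratio of the counts of 2 members in each library, Rho0 left of the parental line, with bars for the means of 4 libraries and 5 log2 units in each panel. FLT1 over KDR shows the widest separation, at -1.60 to -1.32 in Rho0 and 2.45 to 2.59 in the parental line, and VEGFA over VEGFC overlaps between the lines.

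Among the ligands, VEGFA, the principal ligand of KDR (ENSG00000112715, chromosome 6, 43770184 to 43786487), was higher in Rho0. It had 56.2, 54.0, 54.1 and 52.1 CPM in Rho0 replicates 1 to 4, against 35.4, 35.2, 32.7 and 34.0 CPM in the parental libraries. Both lines were tight, with coefficients of variation of 3.09% in Rho0 and 3.56% in the parental line, and they did not overlap. VEGFA rose 1.58-fold (log2 fold change 0.66, SE 0.06, edgeR adjusted p = 1.0e-05). Its 32 annotated transcripts, which encode isoforms that differ in heparin binding, were counted together.

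PGF, placental growth factor, a ligand of FLT1 (ENSG00000119630, chromosome 14, 74941834 to 74955784), was lower in Rho0. It had 353, 292, 267 and 235 CPM in Rho0 replicates 1 to 4, against 429, 473, 455 and 432 CPM in the parental libraries. The lines did not overlap, and PGF fell by 0.64 on the log2 scale (SE 0.11, edgeR adjusted p = 6.8e-04). The log2 ratio of VEGFA to PGF was higher by 1.31 in Rho0, at -2.39 ± 0.20 in Rho0 and -3.70 ± 0.09 in the parental line (SD, n = 4 each; exact permutation p = 0.0286, adjusted p = 0.0343). PGF and its receptor FLT1 were both lower in Rho0, and VEGFA and its receptor KDR were both higher. VEGFA and its co-receptor NRP1 were also both higher, as were VEGFC and KDR, which VEGFC binds besides FLT4. Some pairs did not share a direction. VEGFA also binds FLT1, which was lower, and VEGFB, another ligand of FLT1, was not called. VEGFC was higher (log2 fold change 0.42) while its receptor FLT4 was not called (0.08).

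VEGFC, the ligand of FLT4 that drives lymphatic growth (ENSG00000150630, chromosome 4, 176683538 to 176792727), was slightly higher in Rho0. It had 15.2, 14.8, 16.1 and 14.0 CPM in Rho0 replicates 1 to 4, against 10.5, 11.8, 13.2 and 9.25 CPM in the parental libraries. The gap between the lines was small, since the lowest Rho0 and the highest parental library lay at 14.0 and 13.2 CPM. VEGFC rose 1.34-fold (log2 fold change 0.42, SE 0.11, edgeR adjusted p = 0.00909). In log2 units the ratio of VEGFA to VEGFC was 1.85 ± 0.07 in Rho0 and 1.63 ± 0.25 in the parental line (SD, n = 4 each), a difference of 0.22 that did not pass the test (exact permutation p = 0.143, adjusted p = 0.143).

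VEGFB, a ligand of FLT1 (ENSG00000173511, chromosome 11, 64234538 to 64238793), had the widest spread of the 9 genes among the Rho0 libraries. It had 69.7, 54.9, 55.7 and 39.1 CPM in Rho0 replicates 1 to 4, against 44.2, 44.3, 51.4 and 44.1 CPM in the parental libraries. Rho0 replicate 4 lay below all parental libraries and the other three lay above them. VEGFB was not called (edgeR adjusted p = 0.171), with a log2 fold change of 0.25 and a 95% interval of -0.07 to 0.58. It was called without Rho0 replicate 4 (0.39, adjusted p = 0.00505), with library size alone (0.64, adjusted p = 0.00143) and with each library corrected for the length and GC content of transcripts (0.35, adjusted p = 0.00378), an alternative chosen after seeing the data. The log2 ratio of VEGFA to VEGFB was 0.01 ± 0.30 in Rho0 and -0.42 ± 0.16 in the parental line (SD, n = 4 each; exact permutation p = 0.0286, adjusted p = 0.0343). The lines nearly met in this ratio, the lowest in Rho0 being 0.806 and the highest in the parental line 0.801. Without any 1 of the parental replicates 1, 2, 3 or 4 the difference missed the threshold (exact permutation p = 0.0571).

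VEGFD, the remaining ligand of FLT4 and KDR and not among the 9, had 10, 9, 12 and 15 counts in Rho0 replicates 1 to 4, against 2, 2, 3 and 3 counts in the parental libraries. It was removed by the filter on low counts. Without that filter its log2 fold change was 1.86 (edgeR adjusted p = 0.00622).

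**Figure D3:**
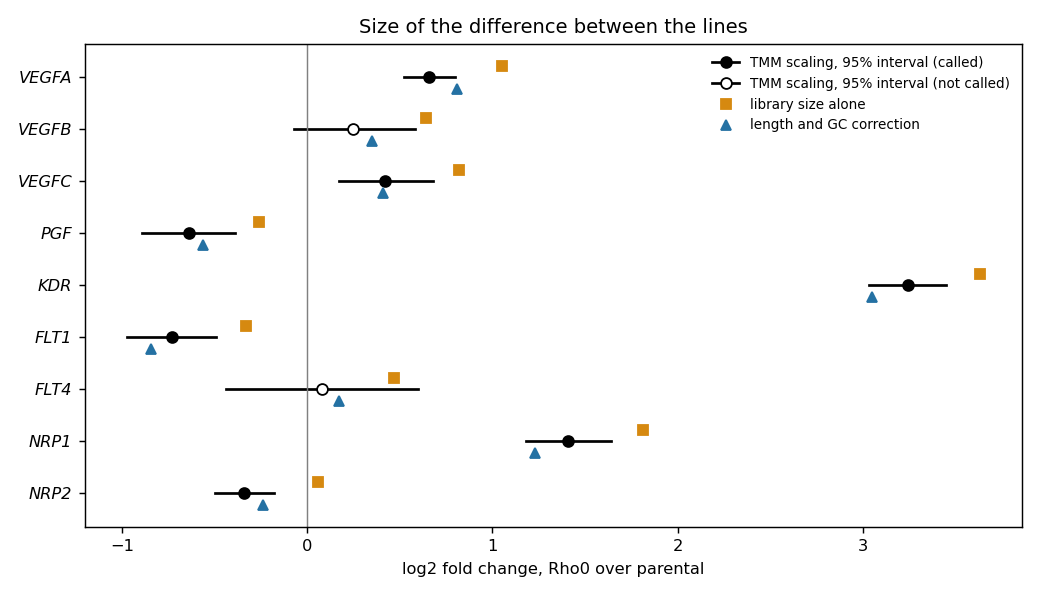
Log2 fold change of Rho0 over parental for each member with its 95% interval under TMM scaling, beside the values with library size alone and with a length and GC correction. KDR at 3.24 and NRP1 at 1.41 stand apart from the rest. NRP2, at -0.34, crosses to 0.06 with library size alone.

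Levels of different genes were compared per kilobase of exon (union of GENCODE 29 exons). In Rho0 the order of CPM per kilobase was PGF at 48.1 ± 8.33, VEGFB at 35.5 ± 8.09, NRP1 at 29.3 ± 4.57, KDR at 19.9 ± 2.06, NRP2 at 12.4 ± 0.840, VEGFC at 6.21 ± 0.360, FLT1 at 3.79 ± 0.604, VEGFA at 3.75 ± 0.116 and FLT4 at 0.0872 ± 0.0157 (SD, n = 4 each). In the parental line it was PGF at 75.0 ± 3.43, VEGFB at 29.8 ± 2.33, NRP2 at 15.8 ± 0.819, NRP1 at 11.0 ± 0.393, FLT1 at 6.29 ± 0.198, VEGFC at 4.63 ± 0.703, VEGFA at 2.38 ± 0.0848, KDR at 2.11 ± 0.121 and FLT4 at 0.0809 ± 0.0163 (SD, n = 4 each). PGF was first and FLT4 last in both lines. KDR was in position 4 in Rho0 and 8 in the parental line. In Rho0 the ranges of PGF and VEGFB, of VEGFB and NRP1, and of FLT1 and VEGFA overlapped, and in the parental line those of VEGFA and KDR overlapped. Other neighbours in these orders did not overlap. The length is uncertain where transcripts differ, as for VEGFA, with 14431 bases of exon. Over the longest transcript, NRP1 came before VEGFB and NRP2 before KDR in Rho0, and the parental order was unchanged.

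Within the Rho0 line, 4 receptor genes and 3 ligand genes were ordered in opposite ways between libraries. KDR, FLT1, NRP1 and NRP2 were each lowest in Rho0 replicate 1 and highest in replicate 4. VEGFA, VEGFB and PGF were each highest in replicate 1 and lowest in replicate 4. FLT4 and VEGFC followed neither order. The same libraries differed across all genes by GC content. With genes split into 3 equal classes of GC content, the median log2 difference of Rho0 replicate 4 minus replicate 1 was 0.45 in the class of lowest GC content and -0.34 in that of highest. Median transcript GC content was 46.0% for KDR, 46.2% for NRP1, 46.8% for FLT1 and 53.0% for NRP2, against 57.2% for VEGFA, 61.8% for VEGFB and 63.4% for PGF. The members that followed neither order had 47.1% (VEGFC) and 62.8% (FLT4). VEGFC, of low GC content, was lowest in Rho0 replicate 4, unlike KDR, NRP1 and FLT1. In 3 classes of transcript length the medians of replicate 4 minus replicate 1 were 0.17 in the longest and -0.01 in the shortest. Between the lines, the median log2 fold change was 0.21 in the class of lowest GC content and -0.09 in that of highest. By length it was 0.13 in the longest class and 0.03 in the shortest. Whether GC content set the order of the members was not tested. With the correction of each library for length and GC content, the log2 fold changes were 3.05 for KDR, 1.23 for NRP1, 0.81 for VEGFA, 0.41 for VEGFC, -0.84 for FLT1, -0.24 for NRP2 and -0.56 for PGF, and each was still called.

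**Figure D4:**
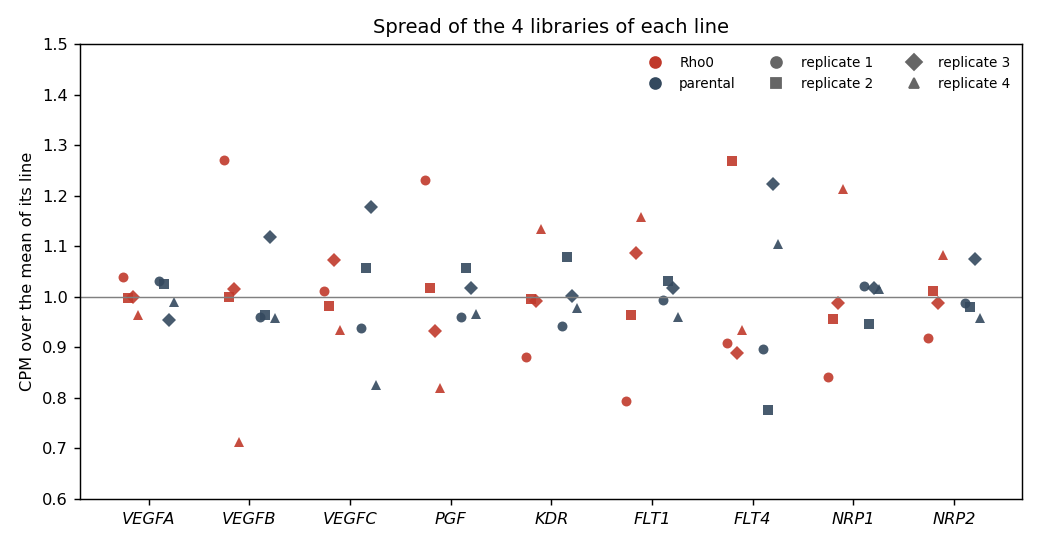
CPM of each member in each library divided by the mean of its line, Rho0 left of the parental line, with symbols for the replicates. In Rho0, replicate 4 (triangle) is highest and replicate 1 (circle) lowest for KDR, FLT1, NRP1 and NRP2, and the reverse holds for VEGFA, VEGFB and PGF.

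Over the 8 libraries, the genes most like KDR in pattern were NTN4 (Pearson r = 0.9997) and SLIT2 (r = 0.9996). NTN4, which encodes netrin-4, averaged 98.4 CPM in Rho0 and 27.4 CPM in the parental line, and SLIT2, a guidance ligand for Robo receptors, averaged 86.2 and 7.09 CPM in Rho0 and in the parental line. The 2 most like NRP1 were RGS4 and NIPA1 (r = 0.9987 and 0.9986). Those most like VEGFA were CCDC9B and TMEM98 (0.9984 and 0.9970), and those most like FLT1 were FRY and SHROOM4 (0.9959 and 0.9943). For PGF they were SRSF9 and FASTK (0.9970 and 0.9962), for NRP2 THSD4 and BAZ2A (0.9912 and 0.9872), and for VEGFC CSNK2A1 and ZBTB4 (0.9705 and 0.9659). All libraries fall into 2 lines, so these r values mostly restate the difference between the lines. Of 10392 genes compared, 1021 had an r above 0.95 with KDR and 18 with VEGFC.

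Genes around the VEGF system were described as lists that were chosen with earlier results of these data known. Each list and marker count below stands beside the shares over all genes tested. These were 29.0% higher and 25.4% lower in Rho0, or 56.5% and 10.1% with library size alone. No list was tested against those shares. Among enzymes and matrix molecules that cut or hold VEGF ligands, 12 of 17 genes were tested, 6 were higher and 3 lower in Rho0 (median log2 fold change 0.30), and 8 were higher and 1 lower with library size alone. CCN2, a matricellular protein that binds VEGFA, had 120.0 ± 7.84 CPM in Rho0 and 20.6 ± 1.98 CPM in the parental line (SD, n = 4 each; edgeR adjusted p = 6.0e-09). The heparan sulfate proteoglycan gene GPC1 rose 2.75-fold and CCBE1, a cofactor of VEGFC cleavage, 1.60-fold. PLAU, the urokinase gene, fell by 0.71 on the log2 scale. The proprotein convertase genes FURIN and PCSK7 each fell by 0.31, but stood at 0.09 and 0.08 and were not called with library size alone.

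Among receptor partners, semaphorins, phosphatases and uptake proteins, 36 of 39 genes were tested, with 16 higher and 9 lower (median 0.19), or 25 higher and 2 lower with library size alone. SEMA3C, a neuropilin ligand, rose 14.5-fold to 17.5 ± 6.03 CPM in Rho0, against 1.20 ± 0.272 CPM in the parental line (SD, n = 4 each; edgeR adjusted p = 8.5e-07). PLXNA4, a plexin that signals with neuropilins, rose 4.01-fold, and the integrin subunit gene ITGAV rose 4.03-fold. MCAM, an endothelial adhesion molecule reported as a KDR partner, had 137 ± 6.23 CPM in Rho0 and 881 ± 46.8 CPM in the parental line (SD, n = 4 each; edgeR adjusted p = 2.2e-09). CDH5, the VE-cadherin gene, fell by 0.73 and the netrin receptor gene UNC5B by 0.56 on the log2 scale. With library size alone UNC5B stood at -0.17 and was not called.

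Of the signalling genes below the receptors, 54 of 56 were tested, with 16 higher and 18 lower (median 0.07), or 33 higher and 6 lower with library size alone. SH2D2A, which encodes the KDR adaptor TSAd, had 0.833 ± 0.186 CPM in Rho0 and 11.7 ± 1.43 CPM in the parental line (SD, n = 4 each; edgeR adjusted p = 2.1e-08). The docking protein gene GAB1 fell by 1.40 and the caspase gene CASP9 by 0.93 on the log2 scale. The phosphoinositide kinase subunit genes PIK3CD and PIK3R1 rose 19.1-fold and 2.76-fold. PTGS2, the inducible cyclooxygenase gene, averaged 24.8 ± 5.005 CPM in Rho0 and had no count in the parental libraries (SD, n = 4), at least 180.1-fold higher against a floor of 3 counts in each library.

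Genes that VEGFA raises in endothelial cells went both ways. Of 31, 28 were tested, 13 were higher and 9 lower in Rho0 (median 0.24), and 18 were higher and 8 lower with library size alone. APLN, the gene of the peptide apelin, had 31.1 ± 2.87 CPM in Rho0 and 816 ± 58.2 CPM in the parental line (SD, n = 4 each), 26.2-fold lower in Rho0 (edgeR adjusted p = 3.4e-10). MMP10, a metalloproteinase gene, fell by 2.66 and the ERK phosphatase gene DUSP5 fell by 2.58 on the log2 scale. ESM1, the endocan gene, rose 3.93-fold, the immediate early gene EGR1 3.33-fold and TNFAIP3, a brake on NF-kB signalling, 2.41-fold. The higher KDR and VEGFA mRNAs in Rho0 thus stood beside a list with members in both directions.

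Of 29 hypoxia-inducible genes, the class to which VEGFA belongs, 27 were tested, 13 were higher and 4 lower (median 0.25), and 18 were higher and 1 lower with library size alone. PLOD2, a collagen lysyl hydroxylase gene, rose 3.57-fold, the stress-induced mTORC1 inhibitor gene DDIT4 3.45-fold and the glycolytic regulator gene PFKFB3 2.44-fold. ENO1 and PGK1, genes of glycolytic enzymes, fell by 0.85 and 0.45 on the log2 scale, and PFKFB4 by 0.38. With library size alone PGK1 stood at -0.06 and PFKFB4 at 0.01, and neither was called. PFKFB4 also lost its call without Rho0 replicate 3, parental replicate 1 or parental replicate 2.

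Of 36 regulators of VEGFA and of endothelial receptor genes, 34 were tested, 9 were higher and 10 lower (median -0.06), and 19 were higher and 2 lower with library size alone. NR2F2, a venous and lymphatic regulator gene, had 516 ± 17.1 CPM in Rho0 and 172 ± 10.5 CPM in the parental line (SD, n = 4 each; edgeR adjusted p = 2.6e-08). PROX1, the lymphatic master regulator gene, rose 3.69-fold and SOX17 3.04-fold. SOX18, SOX7 and HHEX, endothelial transcription factor genes, fell by 1.32, 0.74 and 0.52 on the log2 scale, and HHEX stood at -0.13, not called, with library size alone.

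**Figure D5:**
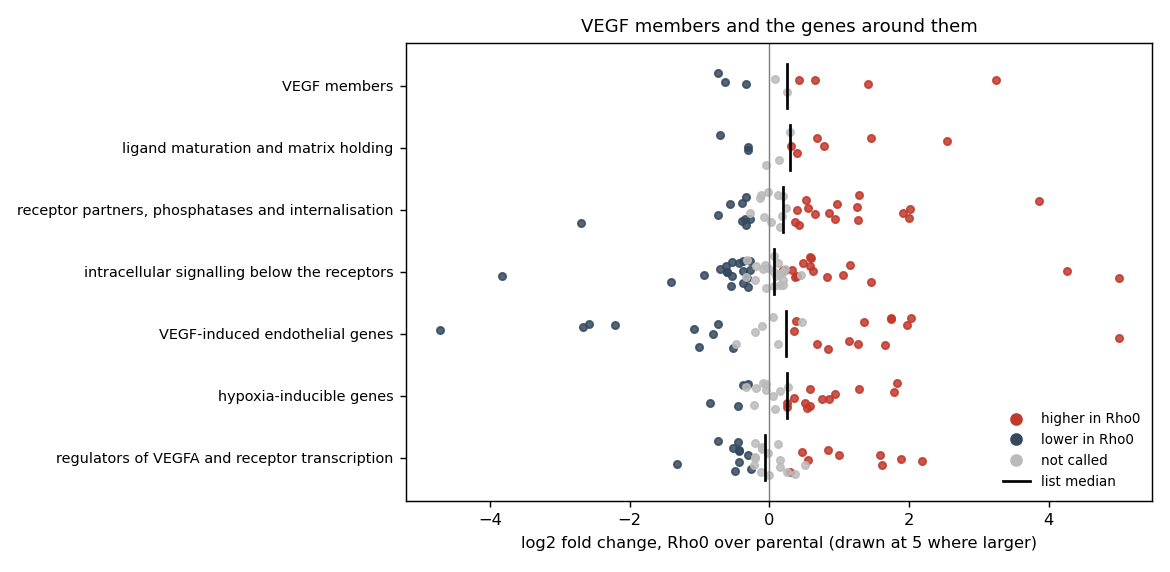
Log2 fold change of Rho0 over parental for the tested genes among the VEGF members and 6 lists around them, 1 point per gene, red where called higher, dark blue where called lower and grey where not called, with a bar for the list median. The VEGF members lie between -0.73 and 3.24, and values above 5 (PTGS2 and CXCR4, which had no parental count) are drawn at 5.

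Markers of the cell types that the line could hold were read as whole lists, and their part in the results above was not tested. In bulk RNA, fewer cells of a type and less RNA per cell cannot be told apart. Of 20 endothelial markers, 19 were tested, 4 were higher and 8 lower in Rho0 (10 and 5 with library size alone), and their summed level was 9460 to 10997 CPM in Rho0 and 10269 to 11545 CPM in the parental line. These sums overlapped between the lines. Left without its most abundant gene, an alternative chosen after seeing the data and applied to each marker list, the endothelial sum (without ENG) was 7741 to 8629.6 CPM in Rho0 and 8632 to 9466 CPM in the parental line, which just missed overlapping. PECAM1 rose 1.95-fold and THBD 3.30-fold, whereas EMCN fell by 4.24 and CDH5 by 0.73 on the log2 scale. Lymphatic markers had 7 of 9 tested, 4 higher and 3 lower with either scaling, and summed to 678 to 750 CPM in Rho0 and 417 to 436 CPM in the parental line. NR2F2 carried most of that sum in Rho0, and without it the direction turned, with 174 to 245.2 CPM in Rho0 and 244.9 to 265 CPM in the parental line, ranges that overlapped. MMRN1 rose 4.30-fold and LYVE1 fell by 3.46 on the log2 scale, while PDPN and CCL21 averaged under 0.1 CPM in both lines. TFF3 averaged 11.1 CPM in the parental line and had no count in Rho0. It was at least 87.9-fold lower in Rho0 against a floor of 3 counts in each library. Epithelial markers of the A549 partner had 11 of 20 tested, 3 higher and 5 lower (4 and 5 with library size alone), and summed to 1341 to 2134 CPM in Rho0 and 2627 to 2900 CPM in the parental line. That sum was mostly keratins KRT7, KRT8 and KRT18, and the lung markers SFTPC and NKX2-1 had no count in any library. Without KRT7 the sum was 701 to 1148 CPM in Rho0 and 1751 to 1946 CPM in the parental line. Fibroblast markers had 5 of 10 tested, 2 higher and 2 lower (2 and 1 with library size alone), and summed to 25.8 to 39.7 CPM in Rho0 and 23.3 to 27.6 CPM in the parental line. These sums joined single genes that moved in opposite directions. FAP, a fibroblast surface protease gene, had 29.2 ± 6.14 CPM in Rho0 and 4.57 ± 0.536 CPM in the parental line (SD, n = 4 each; edgeR adjusted p = 2.6e-07). THY1, a surface glycoprotein gene, had 0.0661 ± 0.0667 CPM in Rho0 and 18.9 ± 1.61 CPM in the parental line (SD, n = 4 each; edgeR adjusted p = 6.9e-09). Without FAP the sum was 1.54 to 2.34 CPM in Rho0 and 19.5 to 22.8 CPM in the parental line. Only 1 fibroblast marker was lower without Rho0 replicate 3 or without parental replicate 1, 2 or 4.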

How the data were processed

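RNA from 4 Rho0 and 4 parental cultures was enriched for poly-A RNA and made into strand-specific libraries, per the labels' protocols. The authors deposited estimated counts for 38010 Ensembl gene IDs, 35.7% of the values not whole, and a log2 table of 12885 genes whose scaling is not stated. Per the submitters' processing notes, kallisto, edgeR, limma and the build GRCh38 were used, with neither versions nor roles. The annotation release, and whether counting used strand, is not stated in the labels or headers. Genes were named from a table of IDs and symbols and from GENCODE 29, for 34284 IDs. Estimated counts were rounded. The quasi-likelihood test of edgeR 4.0.16 under R 4.3.3, with the line as its only term, followed TMM scaling and filterByExpr (minimum count 10). Antisense genes overlap KDR, NRP1, NRP2, VEGFA and VEGFC in GENCODE 29 and have no row of their own among the counts. The standard error is the log2 fold change divided by the square root of F, and 95% intervals use its t distribution. CPM values of 1 count were 0.0225 to 0.0753 in Rho0 and 0.0398 to 0.0516 in the parental line. On simulated counts for this comparison with 15013 genes tested, 56% of 50 genes changed 1.5-fold and 100% of 50 changed 2-fold were called, and 9 of 187 calls were false. The simulation changed far fewer genes than the 54.4% called in these data. It gave every gene and both lines the same spread and held no loss of mitochondrially encoded mRNA. Its rates therefore need not hold for these data. No 2 libraries of a line agreed within sampling noise (lowest chi-square per degree of freedom 4.21).

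Ratios between members are of counts within a library, tested by a two-sided exact permutation test on the absolute difference of means over 70 arrangements. The lists, members and rule for named genes were chosen with earlier results of these data known. Named list genes are up to 3 called members a direction with the largest change and at least 5 CPM in the higher line. Genes like a member had at least 5 CPM and the highest r (log2 CPM, prior count 2), for called members of at least 1 CPM. The bound for a gene without counts covers counting error only. Alternatives were DESeq2 1.42.0 size factors and Wald test, library size alone, totals without mitochondrially encoded genes, no filter, at least 50 counts in 4 libraries, limma 3.58.1 (voom, or trend for the deposited log2 values), a replicate block, leaving out each library, the longest transcript as length and, added after seeing the data, a correction for length and GC content (known for 93.7% of genes tested) and marker sums without the most abundant gene. Replicates share numbers between lines, but nothing in the labels says that a number marks a shared culture or day. Python 3.11.15 served for the tables (numpy 2.4.6, pandas 2.3.3) and plots (matplotlib 3.10.9).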

Additional observations from a re-analysis of the deposited data

Results flagged for a closer look

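In 5 of the 32 groups of 4 libraries examined, 1 library lay far from the other three by Dixon's test, where chance gives about 1 in 20 groups. FLT4 was at 0.980 CPM in Rho0 replicate 2, against 0.686 to 0.721 CPM in the other Rho0 libraries, from 13 counts. NRP1 was at 120.4 CPM in parental replicate 2, against 129.2 to 129.8 CPM in the other parental libraries. VEGFB was at 51.4 CPM in parental replicate 3, against 44.1 to 44.3 CPM in the others. The ratio of VEGFA to VEGFC was 3.36 in Rho0 replicate 3, against 3.66 to 3.71 in the other Rho0 libraries. Mitochondrially encoded mRNAs made up 0.149% of Rho0 replicate 2, against 0.00296% to 0.00756% of the other Rho0 libraries. Without that library the log2 fold changes were 3.22 for KDR, 1.41 for NRP1, 0.64 for VEGFA and -0.74 for FLT1.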

How the results depend on the processing

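KDR, NRP1, VEGFA, VEGFC, FLT1 and PGF kept their direction and call under all 18 alternatives (KDR 3.05 to 3.63, NRP1 1.23 to 1.81, VEGFA 0.61 to 1.05, VEGFC 0.34 to 0.82, FLT1 -0.84 to -0.33 and PGF -0.78 to -0.26 on the log2 scale). NRP2 was called in 17 of 18, the exception being library size alone, at 0.06 (adjusted p = 0.510). VEGFB was called in 3 of 18, with library size alone (0.64), with the length and GC correction (0.35) and without Rho0 replicate 4 (0.39). FLT4, without a value at 50 counts in 4 libraries and called in none of its other 17 alternatives, turned to -0.03 without Rho0 replicate 2 or parental replicate 2. Library size alone called 8583 genes higher and 1540 lower in Rho0, against 4399 and 3858. Among calls, 84.8% and 53.3% were higher. Leaving out 1 library, the ratio of VEGFA to VEGFB differed by 0.30 to 0.54 on the log2 scale, with p = 0.0571 in the exact permutation test without any 1 parental library, and KDR by 3.16 to 3.27, VEGFB by 0.09 to 0.39 and FLT4 by -0.03 to 0.18. With a replicate block KDR stood at 3.23 (adjusted p = 1.3e-07) and no call of a member changed. Deviations of same-numbered libraries correlated at -0.13, 0.04, 0.00 and 0.16, and only replicate 4 correlated best with its own number. For named list genes, 873 alternative values kept direction and call, 6 lost the call and 3 changed sign with library size alone (FURIN 0.09, PCSK7 0.08 and PFKFB4 0.01). Of the list counts, 338 stayed within 1.5 times and 22 did not. At 13 to 32 counts of FLT4 a library, depth limits what can be seen.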
